A study of Mus musculus with 12 samples.

Results

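The AP-1 and EGR immediate early genes were examined in mouse colon by RNA-Seq. The 10 genes Fos, Fosb, Fosl2, Jun, Junb, Jund, Egr1, Egr2, Egr3 and Atf3 were taken from the deposited count table by exact match of the gene name, and all 10 were found among its 54532 genes. All libraries came from the colon of wild-type male C57BL/6J mice that were 5 weeks old when they entered the study. The control group drank regular water. The model group drank dextran sulfate sodium (DSS), a polysaccharide that injures the colon lining, as a 3% solution. The Rhy group received the same DSS with rhynchophylline (Rhy), an alkaloid of Uncaria plants, given orally for 7 days. The DXM group received DSS with dexamethasone (DXM), a synthetic glucocorticoid, at 4 mg/kg. The study had Rhy arms at 2, 4 and 8 mg/kg, and the labels do not say which of them was sequenced. Each group held 3 libraries. The labels do not state that each library is a separate mouse, so p-values measure only the spread between these libraries.

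AP-1 is a dimer of basic leucine zipper proteins, formed by Jun proteins with themselves or with Fos or ATF partners. Immediate early genes are transcribed within minutes of a stimulus such as growth factor, stretch, injury or inflammation, without new protein synthesis, and their mRNAs are short lived. The EGR proteins are zinc finger factors induced through the same kinase pathways, and handling or dissection of tissue can also induce these genes. In bulk tissue, fewer cells of a type and less RNA per cell cannot be told apart.

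Total counts ranged from 14346478 to 17749716 per library, and 16904 genes, including all 10 members, passed the filter on low counts. Levels are given as CPM, the counts scaled to a common library size with TMM. All 10 markers of colon epithelium were detected in every library. The libraries model 1 and model 2 resembled each other closely. Their ratio of variance to counting noise had a median of 1.98, against 10.9 to 69.2 in the other 65 pairs. They were kept as separate libraries because 1.98 is above counting noise. That value does not show that they are independent. Comparisons with the model group may therefore rest on fewer than 3 independent model samples, and results with both summed into 1 library are given beside them. Hoxb13, a homeobox gene of the distal colon, was at 0.165 CPM in control 3, 1.49 in model 3 and 0 in Rhy 1, and at 72.0 to 316 elsewhere. The part of both features in the results was not tested, and values without these 3 libraries are given beside the comparisons.

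The levels of the members spanned more than 2 orders of magnitude. On the FPKM scale, which corrects for gene length, the mean over the 12 libraries was 157 for Jund, 111 for Junb, 91.1 for Fos, 58.7 for Jun, 37.1 for Atf3, 19.8 for Fosl2 and 10.9 for Egr1. Fosb averaged 2.29 FPKM, Egr3 0.509 and Egr2 0.256. The ranges over libraries overlapped between every pair of neighbours in this order. Jund, the Jun protein usually described as constitutive, stood at the 97.8th percentile of all genes tested and Egr2 at the 7.68th.

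Promoter sequences of the members were read from RefSeq on build GRCm38.p6, as the 250 bases before the start site. Entries were found for 8 of the 10 genes, namely Fos, Fosb, Fosl2, Jun, Junb, Jund, Egr2 and Atf3. The entries of Jund and Atf3 started 1210 and 34706 bases from the gene start in the count table, and that of Fosl2 671 bases, so they belong to other transcript starts. Those of Fos and Fosb are shown because both genes varied widely between libraries, and that of Jun because its level separated the control group from the others. Capitals mark motif matches.
Fos, chr12:85473640-85473889, plus strand: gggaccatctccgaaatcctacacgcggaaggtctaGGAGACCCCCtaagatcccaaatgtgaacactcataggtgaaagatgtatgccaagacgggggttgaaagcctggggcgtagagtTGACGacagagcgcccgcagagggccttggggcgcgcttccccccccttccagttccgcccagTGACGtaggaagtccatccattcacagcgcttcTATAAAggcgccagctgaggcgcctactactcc
Fosb, chr7:19310046-19310295, minus strand: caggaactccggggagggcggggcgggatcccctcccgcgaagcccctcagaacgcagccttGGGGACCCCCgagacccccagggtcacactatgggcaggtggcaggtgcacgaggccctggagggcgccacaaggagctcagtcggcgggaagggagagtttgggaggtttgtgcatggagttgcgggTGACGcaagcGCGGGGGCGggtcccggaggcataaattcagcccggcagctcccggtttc
Jun, chr4:95052223-95052472, minus strand: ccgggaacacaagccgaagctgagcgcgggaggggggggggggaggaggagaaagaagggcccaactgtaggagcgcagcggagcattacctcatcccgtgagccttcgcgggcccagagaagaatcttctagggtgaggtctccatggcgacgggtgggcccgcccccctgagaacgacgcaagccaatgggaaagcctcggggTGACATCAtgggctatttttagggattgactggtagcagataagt

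Each motif was searched on both strands, and its share is that of 32851 RefSeq promoter windows of the same length. In Fos the capitals are, in order, an NF-kB site, a pair of TGACG copies and the TATA box TATAAA, whose first base lies 33 bases before the start. In Fosb they are an NF-kB site, 1 TGACG and the EGR site GCGGGGGCG. The NF-kB sites of Fos and Fosb match on the strand opposite to the one printed. In Jun they are TGACATCA, 45 to 38 bases before the start, the letters of the AP-1-like element known from this promoter.

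TGACG, part of a cAMP response element, was present in 4 of the 8 members, Fos, Fosb, Junb and Atf3, and in 17.8% of all promoters. An NF-kB site was present in Fos, Fosb and Fosl2 and in 3.90% of all promoters. An EGR site (GCGGGGGCG or GCGTGGGCG) was present in Fosb and Fosl2 and in 3.06%. Both motifs are rich in G and C. The share of G and C was 58.4% in the Fos window, 68.8% in Fosb and 64.4% in Fosl2, against a median of 52.4% over all promoters. The shares of promoters with a motif were not matched for this, so they do not show enrichment in the members. TATAAA was found only in Fos among the 8, against 12.4% of all promoters, and TGACATCA only in Jun, against 2.93%. The AhR core GCGTG, left in lower case, was present in Fos, Junb and Atf3 and in 28.2% of all promoters. The full element TGACGTCA (1.55% of all promoters), the AP-1 site TGANTCA (6.75%) and the CArG box bound by serum response factor (1.47%) had no match in any of the 8 windows. Sites more than 250 bases before the start, and all sites of Egr1 and Egr3, were outside this search. It therefore does not show that a gene lacks such a site. TGACG, which lies within TGACGTCA, and TGACATCA were added after the sequences had been seen. A match is a run of letters, and binding was not measured.

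**Figure D1:**
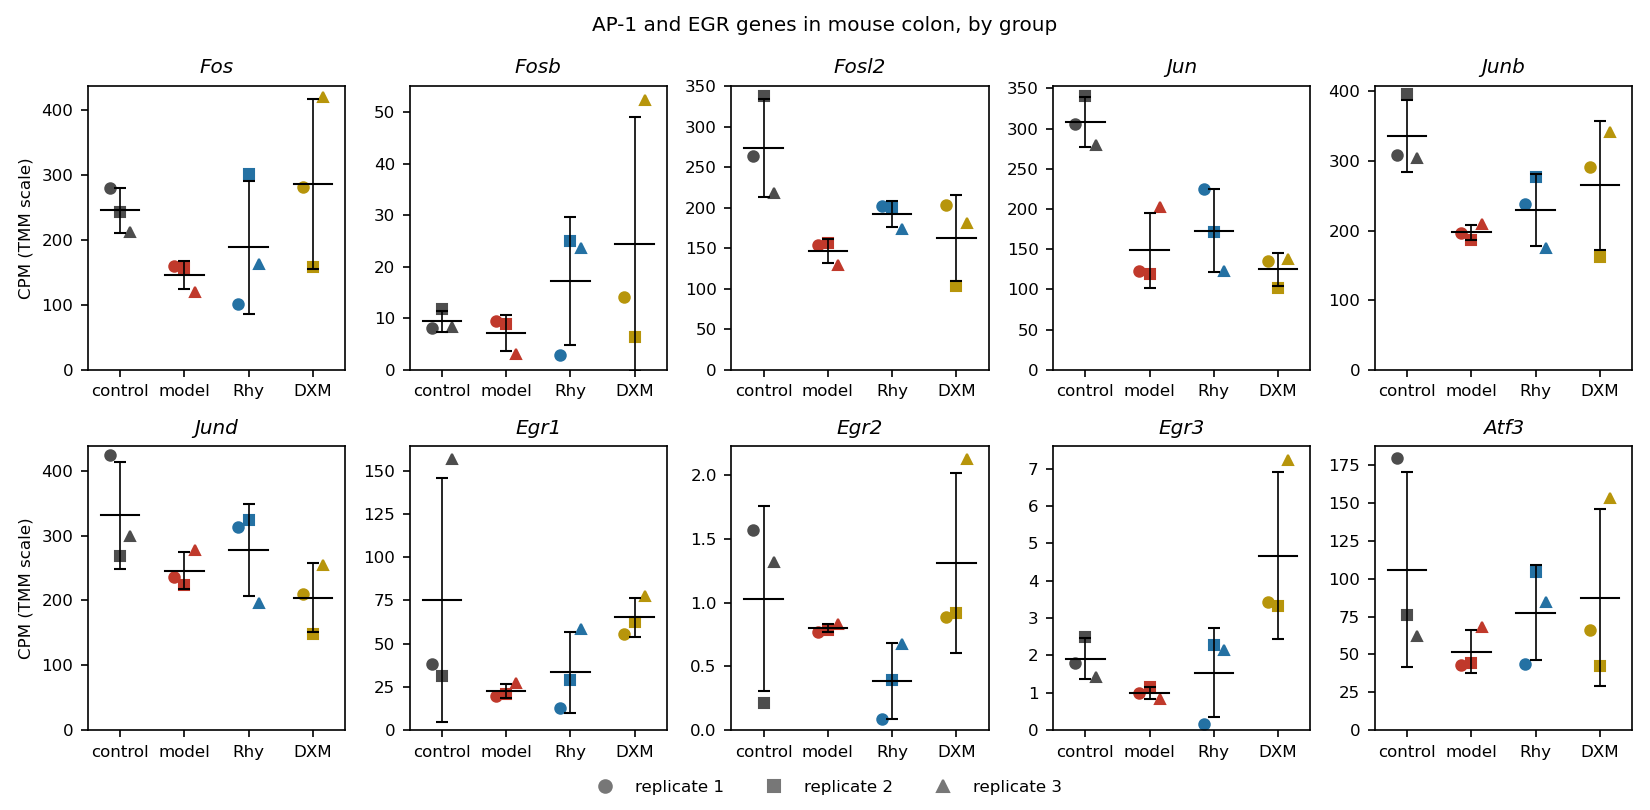
Level of each AP-1 and EGR gene in CPM (y axes, linear, from 0) for each of the 4 groups. Each symbol is 1 library, the long line is the group mean and the bars are ± SD (n = 3; the lower bar of Fosb in DXM is cut at 0). The 3 model libraries lie below all 3 control libraries for Fos, Fosl2, Jun, Junb, Egr1 and Egr3.

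The comparison of model with control asks how the colon differs after DSS alone. All 10 members had lower fitted levels in the model group, with a median log2 fold change of -0.83 against 0.01 over all genes tested. Jun was 2.08-fold lower, Fosl2 1.87-fold and Junb 1.70-fold. Egr1 was 3.34-fold lower, a value that rested on control 3: without it the log2 fold change was -0.65 instead of -1.74 and its unadjusted p was 0.191. The sign of Egr2 turned (0.037) without control 1. With edgeR's quasi-likelihood test, 0 members passed an adjusted p under 0.05, and 0% of all genes did. At an unadjusted p under 0.05, 4 members were lower (Fosl2, Jun, Junb and Egr1), where 4.51% of all genes were. The model and control libraries did not overlap for 6 members, all lower in the model group, where this held for 6.61% of all genes. With model 1 and 2 summed into 1 library, the genes at an unadjusted p under 0.05 numbered 866 instead of 1626, while the members numbered 4 as before. An exact permutation test of 3 against 3 libraries cannot go below 0.1, which these 6 reached. Like the statement on overlap, it counts model 1 and model 2 as separate libraries. With DESeq2 on all libraries, 46 genes passed and Jun was the one member among them (adjusted p 0.0397). On the 2 groups alone Jun (DESeq2 adjusted p 0.0370) and Fosl2 (0.0385) passed, while over all 23 alternatives the adjusted p ranged from 0.0370 to 0.887 for Jun and from 0.0385 to 0.887 for Fosl2. Without the 3 libraries low in Hoxb13 the median of the members was -0.87. There 5 members were at an unadjusted p under 0.05, as were 2686 of 17253 genes. The 10 epithelial markers also had lower fitted levels in model, with a summed level of 21195 to 31345 CPM against 26475 to 37988 in control. The 8 leukocyte markers summed to 111 to 134 CPM in model and 54.6 to 203 in control, with 6 of 8 lower, and 7 of 8 enteric neuron and glia markers were higher (110 to 116 CPM summed against 60.4 to 105). Endothelial markers were lower for 5 of 6 genes (51.3 to 58.6 CPM summed against 61.0 to 79.1). Smooth muscle markers were higher for 9 of 10 (4318 to 5653 against 3744 to 7299). Of 6 neutrophil markers 3 could be tested, and all 3 were lower. Their summed level was low in both groups (0.596 to 1.46 CPM for all 6 in model, 0.933 to 5.62 in control). The part of all these markers in the result was not tested.

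Jun (ENSMUSG00000052684, chr4:95049034-95052222), the founding AP-1 subunit, was at 306, 341 and 279 CPM in the control libraries and at 123, 120 and 202 in the model libraries. The Rhy libraries held 225, 171 and 122 CPM and the DXM libraries 135, 102 and 138. Every control library was above all 9 DSS-exposed libraries, which overlapped one another. The log2 fold change of model against control was -1.06 ± 0.27 (SE; edgeR adjusted p 0.459), and Jun had the smallest p of the members for any difference among the 4 groups (0.00171, edgeR adjusted p 0.388). Its within-group SD of 0.34 on the log2 scale was at the 36.9th percentile of all genes. Jun overlaps the antisense gene Junos by 689 bases, and Junos held 208 counts in all against 35880 for Jun.

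Junb (ENSMUSG00000052837, chr8:84974484-84978718) encodes a Jun protein with weaker transactivation that often dampens Jun. It was at 309, 396 and 304 CPM in control and 196, 187 and 209 in model. The Rhy libraries held 239, 277 and 175 CPM and the DXM libraries 291, 161 and 342. Model and control did not overlap (log2 fold change -0.77 ± 0.27, SE; edgeR adjusted p 0.479), and the DXM libraries spanned both. Junb shares 351 bases with Prdx2 on the opposite strand, which held 37578 counts against 49965 for Junb. Whether strand was used in counting is not given in the sources used here, so these levels are uncertain.

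Jund (ENSMUSG00000071076, chr8:70698949-70700616) was at 424, 269 and 300 CPM in control, 237, 223 and 277 in model, 313, 323 and 195 in Rhy and 210, 148 and 255 in DXM. Model and control overlapped. The 3 DXM libraries were below all control libraries, with a log2 fold change of -0.69 ± 0.27 (SE; edgeR adjusted p 0.206).

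Fos (ENSMUSG00000021250, chr12:85473890-85477273), the partner of Jun in classical AP-1, was at 281, 244 and 213 CPM in control and 160, 157 and 121 in model. The Rhy libraries held 102, 302 and 163 CPM and the DXM libraries 281, 158 and 421. Within both treated groups Fos differed more between libraries than model differed from control (log2 fold change -0.75 ± 0.39, SE; edgeR adjusted p 0.561).

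Fosb (ENSMUSG00000003545, chr7:19302696-19310051), a Fos family member known for its stable splice form in brain, was at 8.09, 11.8 and 8.29 CPM in control and 9.49, 8.86 and 3.04 in model. In Rhy it was at 2.83, 25.1 and 23.7 CPM and in DXM at 14.2, 6.41 and 52.5. The highest library was 18.6 times the lowest, and the within-group SD of 1.26 on the log2 scale was at the 95.7th percentile of all genes, the highest of the members. No pair of groups was separate for Fosb.

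Fosl2 (ENSMUSG00000029135, chr5:32135801-32157842) encodes Fra-2, a Fos protein without the strong transactivation domain of Fos. It was at 264, 339 and 219 CPM in control, 155, 156 and 129 in model, 203, 200 and 174 in Rhy and 204, 103 and 181 in DXM. As for Jun, all 3 control libraries were above all 9 others, and the Rhy libraries were also above all model libraries. The log2 fold change of model against control was -0.90 ± 0.26 (SE; edgeR adjusted p 0.459), and the within-group SD of 0.32 was the lowest of the members.

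Atf3 (ENSMUSG00000026628, chr1:191170296-191218039), a stress-induced ATF protein that often represses, was at 180, 76.1 and 61.9 CPM in control and 43.1, 44.5 and 68.0 in model. It was at 43.4, 105 and 84.8 CPM in Rhy and at 65.9, 42.5 and 153 in DXM. Control 1 and DXM 3 stood high within their groups, and no pair of groups was separate. The log2 fold change of model against control was -1.03 ± 0.52 (SE), and -0.41 without control 1.

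Egr1 (ENSMUSG00000038418), the best studied EGR factor, was at 38.3, 31.2 and 157 CPM in control and 19.7, 20.6 and 27.3 in model. It was at 12.6, 29.1 and 58.7 CPM in Rhy and at 55.7, 62.5 and 77.5 in DXM. Control 3, one of the libraries low in Hoxb13, was the highest of all 12. The log2 fold change of model against control was -1.74 ± 0.61 (SE; edgeR adjusted p 0.479), -0.65 without control 3 and -0.82 without the 3 libraries low in Hoxb13.

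Egr3 (ENSMUSG00000033730, chr14:70077203-70082614) was at 1.80, 2.50 and 1.43 CPM in control, 0.993, 1.15 and 0.834 in model, 0.171, 2.29 and 2.15 in Rhy and 3.43, 3.33 and 7.24 in DXM. All 3 DXM libraries were above all model libraries, as were 10.4% of all genes, and above all control libraries, as were 9.77%. They were also above the Rhy libraries, for which no share over all genes was computed. Egr2 (ENSMUSG00000037868, chr10:67535475-67542188), best known for its role in Schwann cells and lymphocytes, was at 1.57, 0.209 and 1.32 CPM in control, 0.772, 0.789 and 0.834 in model, 0.0856, 0.392 and 0.679 in Rhy and 0.891, 0.916 and 2.13 in DXM. Its counts ran from 1 read in Rhy 1 to 42 in DXM 3, so counting error alone was large.

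**Figure D2:**
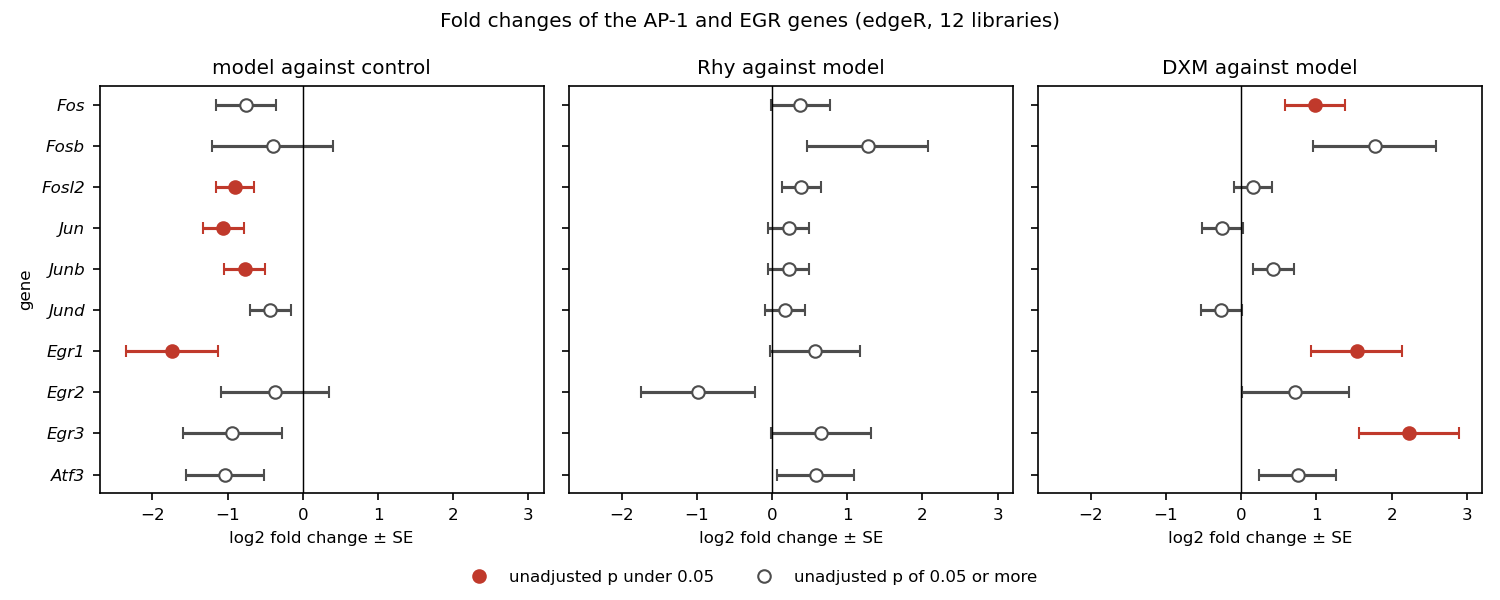
Fitted log2 fold change (x axis) ± SE of each gene (y axis) in 3 comparisons, from the edgeR fit of all 12 libraries. Filled points have an unadjusted p under 0.05. All 10 points are below 0 for model against control, 9 of 10 are above 0 for Rhy against model, and Egr3 has the highest value for DXM against model (2.23 ± 0.67).

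The comparison of Rhy with model asks what Rhy adds to DSS. The fitted level was higher in the Rhy group for 9 members and lower for Egr2, with a median log2 fold change of 0.38 against -0.01 over all genes tested. For 3 of the 9 the sign rested on 1 library: Jun was at -0.017 without Rhy 1, Fos at -0.13 without Rhy 2 and Egr1 at -0.11 without Rhy 3. Fosb was 2.42-fold higher (log2 fold change 1.27 ± 0.81, SE; edgeR adjusted p 1.00) and Egr3 1.57-fold higher (0.65 ± 0.66). With edgeR, 0 members passed an adjusted p under 0.05, and 0% of all genes did. At an unadjusted p under 0.05, 0 members were higher or lower, where 1.74% of all genes were higher. DESeq2 called 0 members on either set of libraries, and 5 and 41 genes in all. Fosl2 was higher in every Rhy library than in every model library (1.31-fold), as were 5.51% of all genes, and Egr2 was lower in every one (1.98-fold), as were 6.02%. The log2 fold change of Egr2 was -0.98 and reached -1.65 without Rhy 3. With model 1 and 2 summed, 283 genes instead of 628 were at an unadjusted p under 0.05. Rhy 1 had the lowest level of 5 members among all 12 libraries, and the share of all genes lowest there was not computed. Without Rhy 1, 2 members were at an unadjusted p under 0.05, as were 1066 of 17393 genes. Rhy 1 also had the lowest summed level of the 8 leukocyte markers, 13.5 CPM against 54.6 to 203 in the other libraries. Smooth muscle markers had higher fitted levels in Rhy than in model for 9 of 10 genes (6606 to 7483 CPM summed against 4318 to 5653), endothelial markers for 6 of 6 (37.9 to 99.6 against 51.3 to 58.6) and epithelial markers for 7 of 10, while 6 of 8 enteric neuron and glia markers were lower. Without the 3 libraries low in Hoxb13 the median of the members was 0.44. There 1 member, Egr1, was at an unadjusted p under 0.05, as were 1453 of 17253 genes. The part of these libraries and markers in the result was not tested.

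The comparison of DXM with model asks the same of the glucocorticoid. The fitted level was higher in the DXM group for 8 members and lower for Jun and Jund, with a median log2 fold change of 0.73 against -0.01 over all genes. The sign of Jun turned without model 3 (0.057) and without the 3 libraries low in Hoxb13 (0.056), and that of Fosl2 without DXM 1 (-0.043). Egr3 was 4.68-fold higher (log2 fold change 2.23 ± 0.67, SE; edgeR adjusted p 0.622), Egr1 2.89-fold (1.53 ± 0.61) and Fos 1.97-fold (0.98 ± 0.40). With edgeR, 0 members passed an adjusted p under 0.05, and 0% of all genes did. These 3 were at an unadjusted p under 0.05, as were 4.89% of all genes in the higher direction. Egr1, Egr2 and Egr3 were higher in all 3 DXM libraries than in all model libraries, as were 10.4% of all genes.

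DESeq2 on the 2 groups called Egr1 (adjusted p 4.78e-07) and Egr3 (adjusted p 4.71e-04) among 590 genes. DESeq2 on all libraries called no member among 52 genes, and the adjusted p over 23 alternatives ranged from 4.78e-07 to 1.00 for Egr1 and from 4.71e-04 to 1.00 for Egr3. DXM 3 had the highest level of 4 members among all 12 libraries, and DXM 2 the lowest of 5. The share of all genes with such extremes in these libraries was not computed. Without DXM 3 the median of the members was 0.19 and the log2 fold change of Fosb was 0.53 instead of 1.77. There 1 member, Egr3, was at an unadjusted p under 0.05, as were 537 of 17287 genes. Without DXM 2 there were 5 members (1594 of 17330 genes), and without model 2 there was 1 (771 of 17371 genes). With model 1 and 2 summed into 1 library there was also 1 member. That sum also left 736 genes instead of 1300 at an unadjusted p under 0.05. Without the 3 libraries low in Hoxb13 the median was 0.82. There 2 members, Egr1 and Egr3, were at an unadjusted p under 0.05, as were 1572 of 17253 genes.

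Markers of other cell types also had different fitted levels in these groups. The summed level of the 6 neutrophil markers was 1.17 to 12.3 CPM in DXM and 0.596 to 1.46 in model, all 6 were at 0 in some library, and 3 were at too low a count to be tested. The 10 smooth muscle markers all had higher fitted levels in DXM (5944 to 10550 CPM summed against 4318 to 5653 in model), as had the 6 endothelial markers (64.2 to 122 against 51.3 to 58.6) and 6 of 8 leukocyte markers (124 to 182 against 111 to 134). Epithelial markers were lower for 9 of 10 genes (15430 to 28538 CPM summed against 21195 to 31345) and enteric neuron and glia markers for 6 of 8 (66.8 to 141 against 110 to 116). Their part in the members' levels was not tested.

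Against control, Rhy libraries had lower fitted levels of 9 members, with Fosb the exception. The sign turned for Atf3 without control 1 (0.17) and for Egr3 without Rhy 1 (0.22), and without the 3 libraries low in Hoxb13 Egr1 was at 0.33 and Egr3 at 0.032. With edgeR 0 members and 0% of all genes passed an adjusted p under 0.05, and Jun alone was at an unadjusted p under 0.05 (log2 fold change -0.84 ± 0.27, SE), where 5.09% of all genes were lower. Fosl2, Jun and Junb were lower in all Rhy libraries, as were 4.79% of all genes. DESeq2 called 0 members here. Leaving out control 2, Rhy 2, Rhy 3 or DXM 2 raised the members at an unadjusted p under 0.05 from 1 to 3. Leaving out control 1 or control 3 raised them to 2. All genes at that level, 1953 in the fit as reported, numbered 1450, 1195, 1370, 1835, 2325 and 2938 in these fits, in the order named.

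DXM libraries had lower fitted levels than control for 6 members. For Egr1, at -0.21, the sign turned with the replicate block (0.12), with limma (0.13 and 0.10) and without control 3 or the 3 libraries low in Hoxb13 (0.89 in both). Atf3 was at 0.34 without control 1 and 0.051 without DXM 2. Of the 4 higher members, Fos was at -0.16 and Egr2 at -0.19 without DXM 3, and Egr2 at -0.13 without control 2. With edgeR 0 members and 0% of all genes passed, and Jun (-1.31 ± 0.27, SE), Fosl2 (-0.75 ± 0.26) and Jund (-0.69 ± 0.27) were at an unadjusted p under 0.05, where 10.2% of all genes were lower. The same 3 were lower in all DXM libraries, as were 8.89% of all genes, and Egr3 was higher in all of them, as were 9.77%. DESeq2 called Jun on all libraries (adjusted p 0.00143) and on the 2 groups (adjusted p 9.09e-04), while over 23 alternatives the adjusted p ranged from 9.09e-04 to 0.502. These comparisons share their control libraries with that of model, so the 3 values of Jun are not independent.

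The mean of the 3 DSS-exposed groups was set against control in the same fit, a contrast chosen after the data had been seen. Jun was 2.09-fold lower (log2 fold change -1.07 ± 0.21, SE; edgeR unadjusted p 2.58e-04, adjusted p 0.137) and Fosl2 1.65-fold lower (-0.72 ± 0.20; edgeR adjusted p 0.140). With edgeR 0 members and 0% of all genes passed an adjusted p under 0.05. At an unadjusted p under 0.05 Jun, Fosl2, Junb and Egr1 were lower, as were 9.19% of all genes. Jun and Fosl2 were below control in all 9 DSS-exposed libraries, as were 1.33% of all genes. The two-sided exact permutation p over libraries was 0.00455 for Jun, the smallest that 9 against 3 libraries allow, and 0.00909 for Fosl2. As the contrast was chosen with these values in view, the permutation p cannot serve as a test of it. It also counts model 1 and model 2 as separate libraries. DESeq2 called both (adjusted p 0.00198 and 0.0269). Over 21 alternatives the adjusted p of Jun ranged from 0.00198 to 0.443 and that of Fosl2 from 0.0269 to 0.468, and without the 3 libraries low in Hoxb13 edgeR gave Jun an adjusted p of 0.0464. Egr1 was -1.04 ± 0.46 in this contrast and 0.06 without control 3, so its lower level rested on that library.

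For any difference among the 4 groups, 4 members (Jun, Fosl2, Egr3 and Egr1) had an unadjusted p under 0.05 in edgeR, where 11.5% of all genes did. Again 0 members and 0% of all genes passed an adjusted p under 0.05, while DESeq2 on all libraries called 1 member, Jun.

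**Figure D3:**
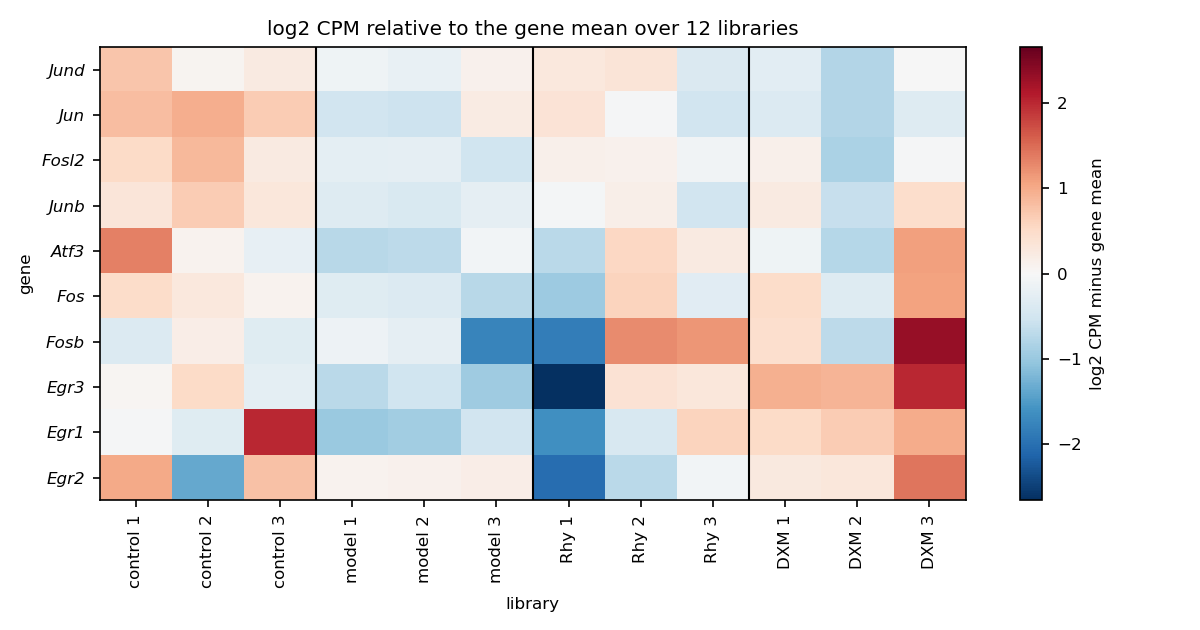
Log2 CPM of each gene (rows) in each of the 12 libraries (columns) minus the mean of the gene over all libraries (colour, log2 units). Rhy 1 is low for Fos, Fosb and the Egr genes, DXM 3 is high for the same genes, and the 3 control libraries are above the mean for Jun, Junb and Fosl2.

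The spread of the members between libraries of 1 group was uneven. The median of their within-group SDs was 0.64 on the log2 scale, against 0.42 for all genes tested. Jun, Junb, Jund and Fosl2 were between 0.32 and 0.35, Fos was at 0.55, and Atf3, Egr1, Egr2, Egr3 and Fosb were at 0.73 or more. The 4 genes of low spread were below the median of all genes.

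The members were compared pair by pair over the 12 libraries, which share depth, dissection and handling. Pearson's r of log2 CPM had a median of 0.43 over the 45 pairs (range -0.33 to 0.83), and the median Spearman's rho was 0.36. It was above 0.7 in 8 pairs and below 0 in 9. In sets chosen after the values had been seen, Jun, Junb, Jund and Fosl2 had a median r of 0.74 among themselves (6 pairs), and Fos, Fosb, Egr1, Egr2, Egr3 and Atf3 0.57 (15 pairs). Between both sets the median r was 0.07 (24 pairs). On deviations from the group means the medians were 0.65, 0.59 and 0.08. Junb had r 0.60 to 0.83 within its own set, 0.70 to Fos, 0.59 to Atf3 and 0.02 to 0.33 to Fosb and the Egr genes. Leaving out DXM 3 lowered the median over all pairs to 0.32.

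**Figure D4:**
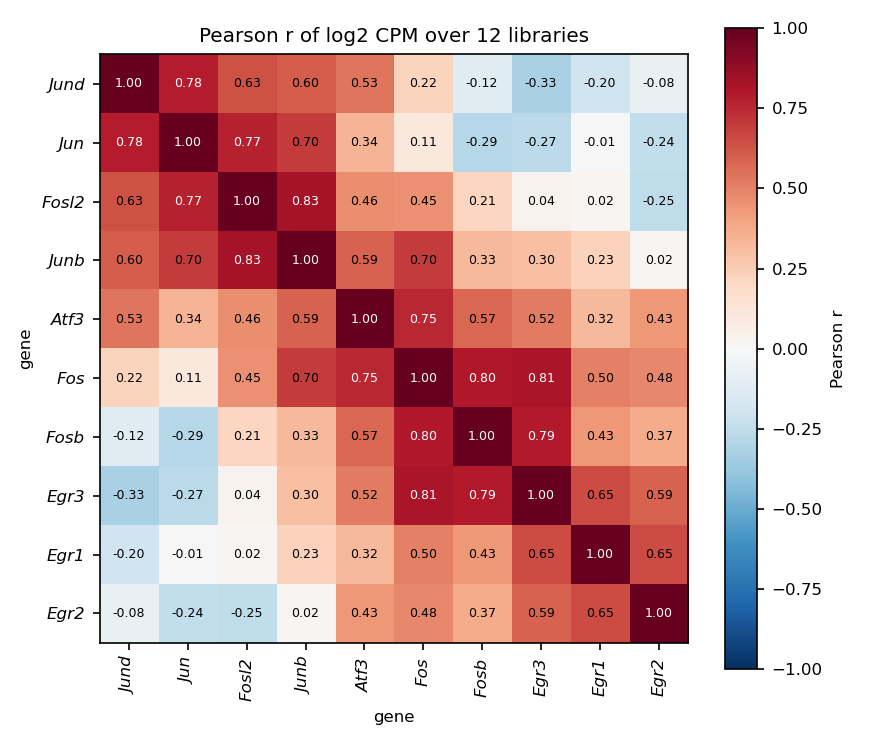
Pearson's r of log2 CPM between each pair of genes (both axes) over the 12 libraries, with r printed in each cell and coded by colour from -1 to 1. Jund, Jun, Fosl2 and Junb share values of 0.60 to 0.83 at upper left, and Fos, Fosb and Egr3 values of 0.79 to 0.81.

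Of 16894 other genes, those most like the mean of the members over the 12 libraries were Dusp1 (r 0.94), a phosphatase of MAP kinases, Csrnp1 (0.94), a nuclear protein induced by AXIN1, and Mpeg1 (0.90), a macrophage perforin. They were followed by Iglc1 (0.90) and Iglv1 (0.89) of the immunoglobulin light chain, the complement receptor C5ar1 (0.89), P2rx1 (0.89), the macrophage receptor Csf1r (0.88), the Hedgehog effector Gli1 (0.88) and Fcgr3 (0.88). Dusp1 was at 29.0 CPM in Rhy 1 and 132 in DXM 3, the libraries in which the Fos and Egr genes were low and high. It was nearly as low in the model libraries (31.3, 31.7 and 29.5) and in DXM 2 (30.1). Of these 10, Dusp1 and Csrnp1 are on the list of other immediate early genes.

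The 36 other immediate early genes were described by counts. Of them 28 had lower fitted levels in model than in control (median log2 fold change -0.38), and 8 were lower at an unadjusted p under 0.05. Of all 16904 genes tested, 8339 had lower fitted levels and 4.51% were lower at an unadjusted p under 0.05. Against model, 27 were higher in Rhy (median 0.26, 0 at an unadjusted p under 0.05). In DXM 30 were higher (median 0.29, 7 higher at an unadjusted p under 0.05). Of all genes 48.3% had higher fitted levels in Rhy and 48.5% in DXM. At an unadjusted p under 0.05, 1.74% and 4.89% of all genes were higher. With edgeR 0 of the 36 passed an adjusted p under 0.05 in any comparison. In DXM against model the largest values were those of the nuclear receptors Nr4a1 (2.71 ± 0.83, SE) and Nr4a3 (2.61 ± 0.93). Nr4a1 was at 25.4, 25.5 and 221 CPM in DXM and at 15.3, 12.5 and 13.9 in model, and Nr4a3 at 6.65, 1.98 and 32.6 and at 3.42, 2.00 and 1.31, so DXM 3 stood far above the other DXM libraries for both. The lowest were Klf4 (-0.48 ± 0.26), a factor of differentiating epithelium, and Nfkbiz (-0.15 ± 0.43), an NF-kB regulator. In model against control Nr4a1 was at -1.01 ± 0.79, of like sign to the Fos and Egr genes, and Nr4a3 at 0.85 ± 0.94.

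Of 15 related AP-1, ATF and EGR family genes, 14 were tested, and their median log2 fold change was -0.13 in model against control, 0.06 in Rhy against model and 0.11 in DXM against model. Fosl1, which encodes Fra-1, was at 1.43 ± 0.89 (SE) in model against control, opposite in sign to all 10 members, and at 1.08 ± 0.84 in DXM against model. Batf3, a dendritic cell factor, was at -1.39 ± 0.63 and 1.33 ± 0.63. Batf2 and Nab1, a corepressor of EGR proteins, were at -0.51 ± 0.36 and -0.26 ± 0.25 in DXM against model.

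The 18 kinases and factors upstream of these genes had medians of 0.03, 0.02 and 0.01 in the same 3 comparisons. Mapk3, the ERK1 kinase, was at -0.35 ± 0.30 (SE) and Mapk14, the p38 kinase, at -0.35 ± 0.18 in DXM against model. The cAMP-responsive factor Crem was at 0.69 ± 0.32 and the serum response cofactor Elk3 at 0.63 ± 0.43. None of the 18 passed an adjusted p under 0.05 in edgeR.

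The 11 heat shock genes, which tissue stress also induces, mostly had fitted differences of the opposite sign to the members in model against control. Of them 10 were higher in model than in control (median log2 fold change 0.61), where 50.7% of all genes had higher fitted levels. At an unadjusted p under 0.05, 2 were higher, as were 5.11% of all genes. Against model, 8 were higher in Rhy and 9 in DXM, as were 48.3% and 48.5% of all genes. The mitochondrial chaperonins Hspe1 and Hspd1 were at 0.97 ± 0.26 (SE) and 0.89 ± 0.45 in model against control, and Hspa1a and Hspb1 at 0.78 ± 0.83 and -0.52 ± 0.47. With edgeR 0 of the 11 passed an adjusted p under 0.05. Their summed level was highest in DXM 3 (4251 CPM, of which Hspa8 gave 2400) and at most 3295 CPM elsewhere. Hspe1 and Hspd1, unlike the other genes of this list, were not highest in DXM 3. DXM 3 was also the highest library for 4 members. What the peak in DXM 3 means for the members' levels was not tested.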

How the data were processed

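mRNA libraries of colon were sequenced on a HiSeq X10. The authors deposited whole-number counts of reads per gene, not normalized, and FPKM values, counts scaled by gene length and library size. The submitters' processing notes name HISAT2 2.0.5, featureCounts 1.5.0-p3, DESeq2 1.16.1 and build mm10. The notes give these tools no role, and the strand setting is not given in the sources used here. Sample titles tied every column to a sample.

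The main test was that of edgeR 4.0.16 under R 4.3.3: filterByExpr (minimum count 10), TMM scaling and a two-sided quasi-likelihood test on group means, with all 12 libraries in 1 fit and Benjamini-Hochberg adjustment over all genes tested. Each SE was obtained as the absolute log2 fold change over the root of its F statistic. CPM values carry no prior count, and correlations used log2 CPM with a prior count of 2. DESeq2 1.42.0, limma 3.58.1 on log2(FPKM + 1) and log2(FPKM + 0.1), other scalings, any-count filtering and leaving out each library were alternatives. The fits were tested on simulated counts with 200 genes changed 4-fold in model against control. At an adjusted p under 0.05 edgeR recovered 136 of them with 9 false calls. DESeq2 on all libraries recovered 160 with 41 false calls, and limma on log2(CPM + 1) 142 with 8. So in this simulation edgeR missed part of the changes, and DESeq2 made more false calls. The simulated libraries were independent, with no pair as alike as model 1 and model 2. They held only the 16904 genes that passed the filter, while DESeq2 on the real counts of all libraries tested 29929. DESeq2 on the 2 groups was not simulated. The simulation therefore does not give the rate of false calls in the real data. Members, gene lists and alternatives were chosen with earlier results of these data known. All members are named. From other lists the 2 largest and 2 smallest log2 fold changes in DXM against model are named, and the 10 genes with the highest r to the mean of the members. Chromosome coordinates are those of the count table and match GENCODE M21 on GRCm38 for 10 of 10 members.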

Additional observations from a re-analysis of the deposited data

How the results depend on the processing

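Of 1360 fold changes of the members under alternatives, 34 changed sign, 11 passed an adjusted p under 0.05 and none that had passed was lost, since edgeR called 0 of them. Genes with an adjusted p under 0.05 under DESeq2 on all libraries numbered 46 for model against control, 5 for Rhy against model, 52 for DXM against model, 33 for Rhy against control, 1051 for DXM against control, 734 for all DSS groups and 414 for any difference. Of the members it called 1, 0, 0, 0, 1, 2 and 1, and 3 were at an unadjusted p under 0.05 in Rhy against control. On the 2 groups alone DESeq2 called 167, 41, 590, 2 and 395 genes in the first 5 comparisons, and 2, 0, 2, 0 and 1 members, with 1 member at an unadjusted p under 0.05 in Rhy against model and 5 in DXM against control. With edgeR on the 2 groups 1 gene passed in model against control and 2 in DXM against model, and 1 member was at an unadjusted p under 0.05 in Rhy against model. With any count allowed, 1, 1, 13, 44 and 12 genes passed in model against control, Rhy against control, DXM against control, all DSS groups and any difference, with 1 member called in all DSS groups, 2 members at an unadjusted p under 0.05 in Rhy against control and 5 in DXM against control. With limma on log2(FPKM + 0.1), 2 genes passed in Rhy against model, 2 in DXM against model and 3 for any difference. All genes at an unadjusted p under 0.05 in Rhy against control numbered 2365 with DESeq2 on all libraries and 2361 with any count. On the 2 groups they numbered 1021 (DESeq2) and 824 (edgeR) in Rhy against model. In DXM against control they numbered 2633 with DESeq2 on the 2 groups and 3698 with any count.

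The sign of Egr3 in all DSS groups against control, 0.02 in the fit as reported, was -0.022 with DESeq2, -0.021 with RLE scaling and -0.078 with limma on log2(FPKM + 0.1). Egr1 in DXM against control, -0.21 as reported, was 0.13 and 0.10 with limma at the pseudocounts 0.1 and 1. Replicate numbers did not pair the libraries: of 18 same-number pairs 6 had r above 0.1 (range -0.31 to 0.36, median -0.03, against 0.03 for other numbers). With the replicate block 0 genes passed in any comparison, Rhy against control had 2 members at an unadjusted p under 0.05, Egr1 in DXM against control was 0.12 and Egr3 in all DSS groups -0.050. In that fit 2098 of 16904 genes were at an unadjusted p under 0.05 in Rhy against control. With model 1 and 2 summed, 1 member was at an unadjusted p under 0.05 in DXM against model, as were 736 of 17346 genes.

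Without the 3 libraries low in Hoxb13, chosen after seeing the data, 2 genes passed in DXM against model, 350 in all DSS groups (1 member) and 1 for any difference. Members at an unadjusted p under 0.05 numbered 1 in Rhy against model and 5 in DXM against control. Of all 17253 genes tested, 1453 and 4079 were at that level. Jun in DXM against model became 0.056, Egr1 and Egr3 in Rhy against control 0.33 and 0.032, and Egr1 0.13 in all DSS groups and 0.89 in DXM against control. The cause of these changes was not tested.

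Leaving out 1 library in turn gave 0 to 1 genes in model against control, Rhy against model, Rhy against control and any difference, 0 to 4 in DXM against control and 0 to 27 in all DSS groups (27 without DXM 1). Members at an unadjusted p under 0.05 ranged from 0 to 2 in Rhy against model and 1 to 5 in DXM against model. They ranged from 1 to 3 in Rhy against control, 2 to 5 for any difference and 3 to 6 in model against control. All genes at that level ranged, in the same order, from 289 to 1066, 537 to 1834, 1195 to 2938, 1142 to 2655 and 888 to 2811. The median log2 fold change in DXM against model ranged from 0.19 to 1.00, and the median r from 0.32 to 0.49. Signs changed in model against control for Egr2 (-0.85 to 0.037); in Rhy against model for Jun (-0.017 to 0.54), Fos (-0.13 to 0.68) and Egr1 (-0.11 to 0.96); in DXM against model for Jun (-0.39 to 0.057) and Fosl2 (-0.043 to 0.39); in Rhy against control for Atf3 (-0.73 to 0.17) and Egr3 (-0.66 to 0.22); in DXM against control for Atf3 (-0.97 to 0.34), Egr1 (-0.58 to 0.89), Egr2 (-0.19 to 0.75) and Fos (-0.16 to 0.51); and in all DSS groups for Atf3 (-0.87 to 0.032), Egr1 (-1.41 to 0.060) and Egr3 (-0.17 to 0.27).

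Scaling moved the split of genes at an unadjusted p under 0.05 in model against control from 863 higher and 763 lower to 666 and 980 with RLE, in DXM against model from 827 and 473 to 1020 and 333 with upper-quartile scaling, in DXM against control from 1467 and 1722 to 2053 and 1299, and in all DSS groups from 1328 and 1554 to 1669 and 1303. The sign of the members changed in 1 of 120 fold changes under these scalings. Egr2 rested on 1 to 42 counts per library.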
